A study of Arabidopsis thaliana with 12 samples.

Results

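The RPP4/RPP5 locus of Arabidopsis thaliana is a run of immune receptor genes on chromosome 4. Its 8 genes studied here were taken by locus code out of 37336 genes in the count table: RPP4 (AT4G16860), SNC1 (AT4G16890), AT4G16900, AT4G16920, AT4G16940, RPP5 (AT4G16950), AT4G16960 and RLM3 (AT4G16990). The set was chosen by locus code, selected on no threshold, but with the er erl2 to WT differences of these genes in the same libraries already known. Genotype differences of the 8 genes are therefore given as a description, with no test, while the effects of auxin within each genotype are tested.

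Plants detect pathogens inside the cell with receptors that join a nucleotide-binding domain to leucine-rich repeats, and one large class of them also carries a TIR domain, an enzyme that cleaves NAD+. TIR-type receptors act through EDS1 with its partners PAD4 and SAG101 and through helper receptors, and lead to salicylic acid build-up and cell death. The RPP4/RPP5 locus is known for resistance to downy mildew, for copies that differ between natural accessions, and for growth defects when SNC1 is overactive.

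RNA was sequenced from whole seedlings of the Col-0 accession, 3 days after germination. The 4 groups of 3 libraries were er erl2 with IAA, er erl2 with mock, wild type (WT) with IAA and WT with mock. The mutant carries er-105 and erl2-1, alleles of ERECTA (ER) and ERECTA-LIKE 2 (ERL2), receptor kinases of growth and stomatal patterning; WT carries neither. Seedlings were moved from solid to liquid medium 30 min before the treatment and then received 1 uM IAA (indole-3-acetic acid, the main natural auxin) or mock for 30 min, and both treatments contained 0.02% DMSO. The labels do not say how many seedlings or cultures stand behind a library, so p-values measure the spread between these libraries, which may be technical.

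Libraries held 28930625 to 35837999 counts. ER, the gene that checks the genotype labels, was at 13.3% of its WT level under IAA and 10.9% under mock in er erl2, and ERL2 at 25.5% and 25.6%. Both genes had counts in all er erl2 libraries. All 8 markers of shoot, root and epidermis looked up were detected. Under mock, the shoot gene CAB1 was called higher in er erl2, while the shoot gene RBCS3B, the root hair gene SHV2 and the epidermal gene PDF1 were called lower. Under IAA only RBCS3B was called, lower in er erl2. Of all genes tested, 15.7% were called between the genotypes under mock and 14.0% under IAA. Under mock the call was lost in 5 of 20 alternatives for CAB1, 10 for RBCS3B, 11 for SHV2 and 0 for PDF1, and under IAA in 7 for RBCS3B. The part of these shifts in the differences below was not tested. In RNA from whole seedlings, fewer cells of a type and less RNA per cell cannot be told apart.

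The genes lie between chr4:9488466 and chr4:9565569 in the RefSeq annotation of TAIR10.1. All but RLM3 are on the minus strand and are annotated as TIR receptors with leucine-rich repeats; RLM3, on the plus strand at the far end, has no leucine-rich repeats. RPP4 to AT4G16960 are close relatives. Among these 7 genes, aligned coding bases were 95.7% identical between AT4G16940 and AT4G16960, 93.8% between AT4G16920 and RPP5, 91.8% between AT4G16920 and RPP4, and 91.2% between SNC1 and RPP5. The most distant pair of the 7, AT4G16900 and AT4G16940, shared 74.2%. RLM3 shared 58.2% to 59.4% with the others, the range seen along its row in the map of coding identity. The stretch of 45 bases with the most columns alike in all 7 genes had 43 identical columns. It is shown because reads from it differ by at most 2 bases from RPP4 in any of the 7 genes; capitals mark bases that differ from RPP4, and each line runs 5′ to 3′ along the coding strand (chromosome 4, minus strand, TAIR10.1).
RPP4: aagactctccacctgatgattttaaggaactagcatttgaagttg
SNC1: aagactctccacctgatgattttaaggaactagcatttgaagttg
AT4G16900: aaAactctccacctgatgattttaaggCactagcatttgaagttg
AT4G16920: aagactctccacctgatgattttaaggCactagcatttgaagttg
AT4G16940: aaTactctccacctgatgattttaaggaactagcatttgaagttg
RPP5: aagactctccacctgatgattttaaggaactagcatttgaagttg
AT4G16960: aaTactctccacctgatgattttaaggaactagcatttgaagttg

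The window with the fewest shared columns, 20 of 45, is shown in the same way because there all genes but AT4G16940 and AT4G16960 have a sequence of their own. Some of them differ from RPP4 by few bases. SNC1 had 20 differences from RPP4 there, AT4G16900 had 12, RPP5 had 7 and AT4G16920 had 2. AT4G16940 and AT4G16960 each had 1, the same one.
RPP4: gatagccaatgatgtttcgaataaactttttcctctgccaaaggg
SNC1: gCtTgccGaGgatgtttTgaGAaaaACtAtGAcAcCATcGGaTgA
AT4G16900: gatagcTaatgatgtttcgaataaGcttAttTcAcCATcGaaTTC
AT4G16920: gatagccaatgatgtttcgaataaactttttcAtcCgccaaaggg
AT4G16940: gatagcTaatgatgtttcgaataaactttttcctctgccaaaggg
RPP5: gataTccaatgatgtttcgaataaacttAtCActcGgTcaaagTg
AT4G16960: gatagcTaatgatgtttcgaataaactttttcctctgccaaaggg

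**Figure D1:**
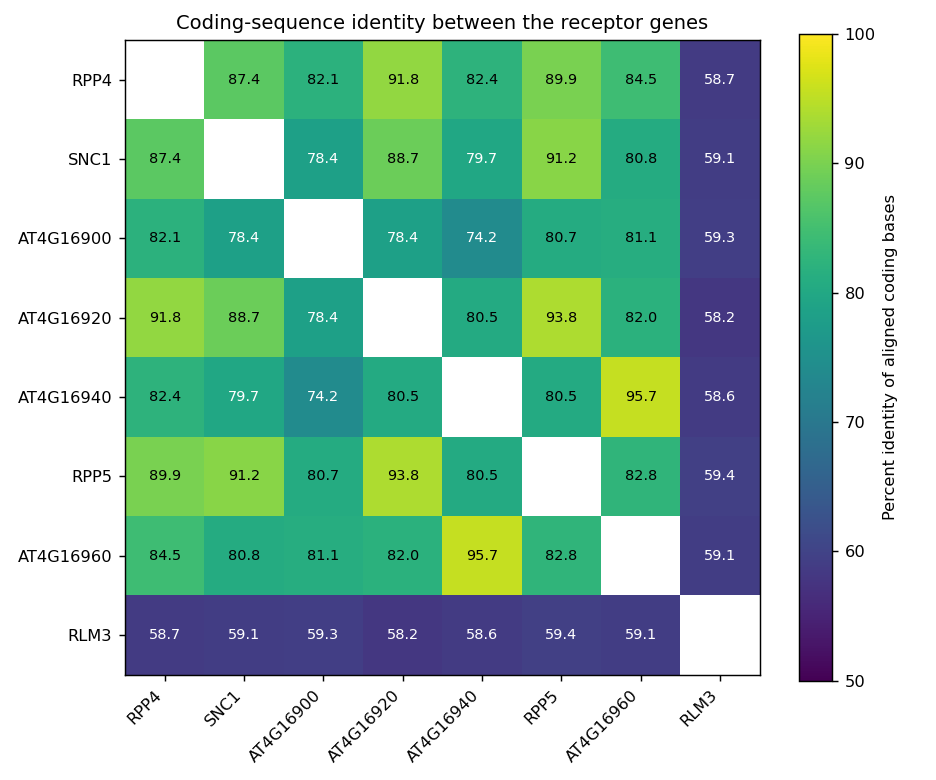
Percent identity of aligned coding bases for each pair of the 8 receptor genes, by colour and number. The 7 genes RPP4 to AT4G16960 share 74.2% to 95.7% with each other, and RLM3 shares 58.2% to 59.4% with them.

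How far this likeness could blur the counts differs from gene to gene. Of all 100-base words in the exons, 54% of those of AT4G16960 occurred elsewhere in the genome, against 29.7% for RPP5, 27.8% for AT4G16940 and 27.2% for AT4G16920. Words found at more than 1 place made up 9.73% for RPP4, 3.05% for SNC1, 1.79% for AT4G16900 and 0% for RLM3. With 50-base words such shares were larger: 56.7% for AT4G16960, 45.1% for RPP5, 39.4% for AT4G16920 and 29.8% for AT4G16940. They were 29.1% for RPP4, 21.2% for SNC1, 10.6% for AT4G16900 and 0% for RLM3. At 100 bases the overlap is mostly between pairs. AT4G16940 shared 27.8% of its words with AT4G16960, which shared 53.3% of its own with AT4G16940, and AT4G16920 and RPP5 shared 22.5% and 21.5% of theirs with each other. Whether reads that fit several places were counted is not given in the sources used here. The split of counts among the genes other than RLM3 is therefore uncertain, above all within these pairs.

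RPP5 is named for resistance to downy mildew, caused by Hyaloperonospora arabidopsidis, and showed the widest gap between the genotypes among the 8 genes. Its level was 5.80, 4.69 and 6.37 CPM (counts scaled to library size with edgeR's TMM factors) in er erl2 with IAA and 3.56, 4.57 and 4.59 CPM in er erl2 with mock. In WT it was 75.5, 81.6 and 77.1 CPM with IAA and 82.4, 79.2 and 76.7 CPM with mock. Every er erl2 library lay below every WT library, with 115 to 201 raw counts in er erl2 and 2271 to 2734 in WT. The log2 fold change of er erl2 over WT was -3.79 (SE 0.103) under IAA and -4.23 (SE 0.106) under mock, that is 7.21% and 5.34% of the WT level. RPP5 (chr4:9538233-9544755) overlaps AT4G16955 on the other strand by 820 exon bases, and AT4G16955 had 0 counts in all libraries. RPP5 also overlaps AT4G02965, which has no row in the count table, by 223 exon bases on its own strand.

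RPP4, a downy mildew receptor of Col-0, was the next most abundant gene to be lower in the mutant. It stood at 28.1, 23.9 and 29.7 CPM in er erl2 with IAA and 19.3, 23.9 and 23.1 CPM in er erl2 with mock. WT libraries had 70.0, 69.2 and 71.7 CPM with IAA and 75.1, 75.1 and 71.9 CPM with mock. Again no er erl2 library reached any WT library. The log2 fold change was -1.37 (SE 0.0851) under IAA and -1.74 (SE 0.0863) under mock, or 38.7% and 29.9% of WT. RPP4 lies at chr4:9488466-9495837.

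AT4G16940 and AT4G16960, the most alike pair, were also lower in er erl2, both from low levels. AT4G16940 (chr4:9531373-9537918) had 14 to 25 raw counts in er erl2 libraries and 67 to 136 in WT libraries. Its mean level was 0.625 ± 0.185 CPM with IAA and 0.495 ± 0.0602 CPM with mock in er erl2, against 3.46 ± 0.880 and 2.85 ± 0.725 CPM in WT (SD, n = 3 each). The log2 fold change was -2.46 (SE 0.278) under IAA and -2.51 (SE 0.289) under mock. For AT4G16960 (chr4:9547402-9551028) the means were 2.86 ± 0.673 and 2.45 ± 0.334 CPM in er erl2 and 7.12 ± 0.684 and 5.54 ± 0.508 CPM in WT, in the same order of treatments. Its log2 fold change was -1.32 (SE 0.168) under IAA and -1.18 (SE 0.172) under mock. Neither gene overlapped between the genotypes, and since the pair shares much of its sequence, the split of counts between them is uncertain.

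AT4G16920 (chr4:9517950-9525800), the closest relative of RPP5, ran the other way. Its level was 15.9, 16.6 and 16.2 CPM in er erl2 with IAA and 11.6, 13.9 and 12.2 CPM in er erl2 with mock. WT had 3.97, 4.18 and 3.88 CPM with IAA and 3.63, 3.65 and 3.24 CPM with mock. All 6 er erl2 libraries were above all 6 WT libraries, by 4.04-fold under IAA and 3.58-fold under mock (log2 2.02, SE 0.10, and 1.84, SE 0.10). AT4G16920 thus differed between the genotypes in the opposite direction to RPP5, with which it shares 22.5% of its 100-base words. The gene overlaps AT4G16915 on the other strand by 387 exon bases, and AT4G16915 had at most 1 count in any library. It also overlaps AT4G06440 by 47 exon bases on its own strand.

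AT4G16900 (chr4:9511859-9516688) was also higher in er erl2, by less. It had 64.8, 65.2 and 61.9 CPM in er erl2 with IAA and 64.2, 57.5 and 54.2 CPM in er erl2 with mock, against 49.3, 45.7 and 47.6 CPM in WT with IAA and 46.4, 41.4 and 48.4 CPM in WT with mock. The genotypes did not overlap. The log2 fold change was 0.43 (SE 0.0724) under IAA and 0.37 (SE 0.0726) under mock.

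SNC1 (chr4:9500271-9505972), whose gain-of-function mutant keeps defence switched on and stunts growth, showed no such gap. Levels were 50.1, 45.5 and 49.8 CPM in er erl2 with IAA and 36.8, 52.2 and 40.2 CPM in er erl2 with mock. WT had 53.8, 52.2 and 63.6 CPM with IAA and 49.7, 48.3 and 53.4 CPM with mock. Under IAA the er erl2 libraries lay below the WT libraries, whereas under mock the second er erl2 library lay within the WT range. The log2 fold change was -0.22 (SE 0.114) under IAA and -0.23 (SE 0.114) under mock.

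RLM3 (chr4:9558571-9565569), needed for resistance to Leptosphaeria maculans and to necrotrophic fungi, was by far the most abundant of the 8 genes and nearly level. Its mean was 536 ± 31.4 and 517 ± 5.65 CPM in er erl2 with IAA and mock, against 526 ± 33.6 and 492 ± 14.6 CPM in WT (SD, n = 3 each). The log2 fold change was 0.03 (SE 0.0593) under IAA, where the groups overlapped, and 0.07 (SE 0.0593) under mock, where the lowest er erl2 library was just above the highest WT library.

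**Figure D2:**
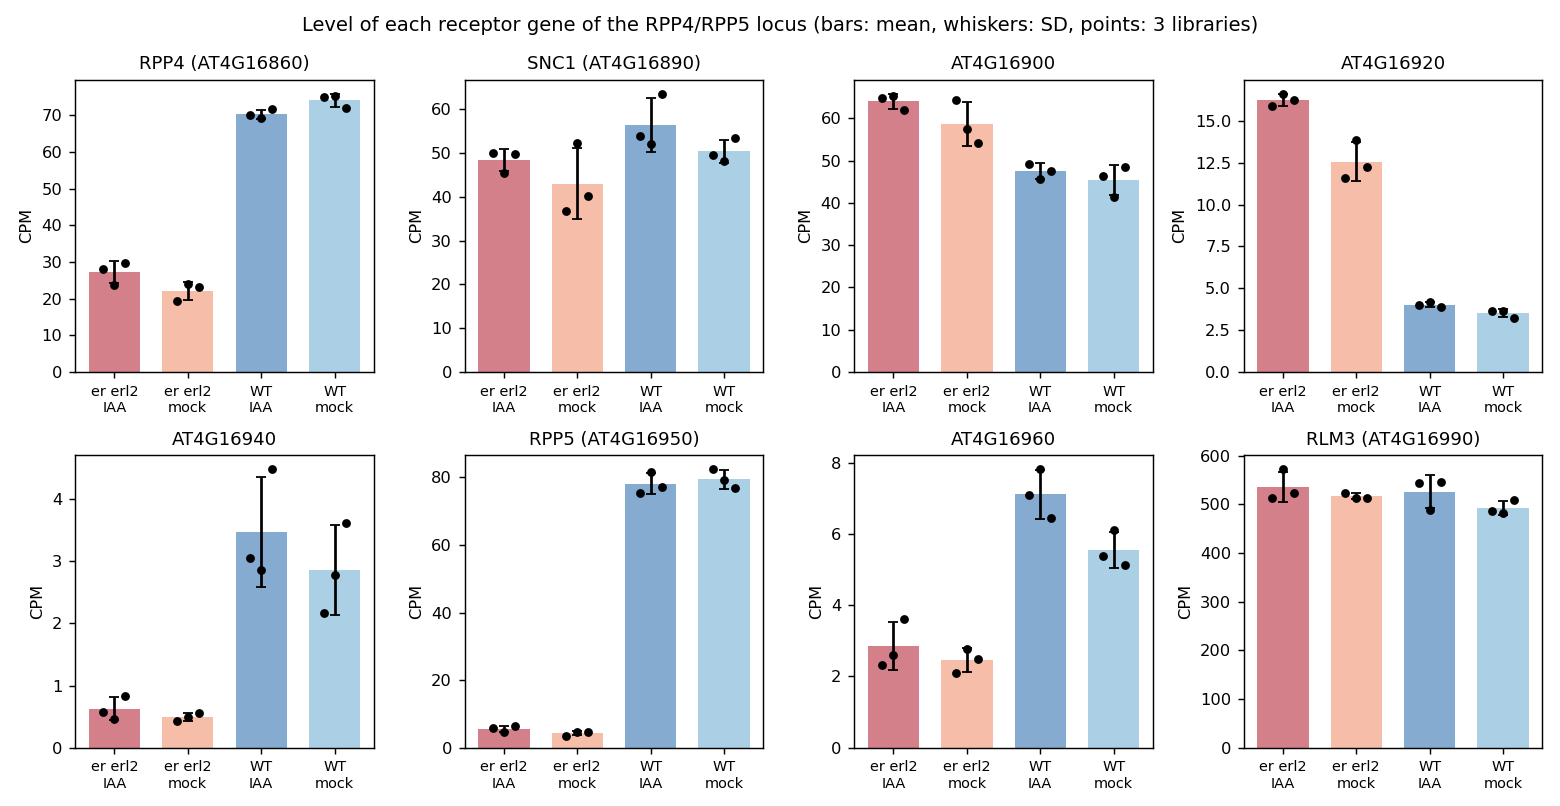
CPM of each receptor gene in the 12 libraries (points), with group means (bars) and SD (whiskers), er erl2 groups left of WT groups and IAA left of mock; each panel has its own vertical scale from 0. RPP5 averages 5.62 and 4.24 CPM in er erl2 and 78.1 and 79.4 CPM in WT, while AT4G16920 is higher in er erl2 and RLM3 lies between 481 and 572 CPM in all groups.

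In counts over the set, 6 of the 8 genes passed the threshold used for all genes (edgeR, adjusted p under 0.05) in each treatment, AT4G16900 and AT4G16920 higher and RPP4, AT4G16940, RPP5 and AT4G16960 lower in er erl2. Of all 21376 genes tested, 14.0% passed it under IAA (7.14% higher and 6.84% lower), 15.7% under mock (8.40% higher and 7.33% lower) and 8.69% under both in the same direction. The same 6 genes did not overlap between the 6 er erl2 and the 6 WT libraries, nor did 13.3% of all genes tested (6.83% higher and 6.46% lower). Nothing is read from these shares, since the set was chosen with the genotype differences known. Each of the 6 genes had the same sign under every alternative processing.

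The make-up of the counts assigned to the genes of the locus differed between the genotypes. Reads of both genotypes were counted against the TAIR10 build. Whether the er erl2 and WT lines differ in sequence or copies at this locus was not tested. Summed over the 7 genes without RLM3, the level was 165 ± 5.26 CPM with IAA and 144 ± 10.2 CPM with mock in er erl2, against 267 ± 6.71 and 261 ± 4.25 CPM in WT (SD, n = 3 each). Per kilobase of exon, AT4G16900 made up 44.6% of this sum with IAA and 46.8% with mock in er erl2, against 21.7% and 21.1% in WT. RPP5 made up 2.54% and 2.20% in er erl2, against 23.1% and 24.1% in WT. For RPP4 the shares were 17.7% and 16.5% in er erl2, against 30.0% and 32.3% in WT. SNC1 held a larger part in er erl2, 24.9% and 25.2%, against 19.0% and 17.3% in WT, with no gain in its own level. The AT4G16920 share was 7.50% and 6.63% in er erl2, against 1.21% and 1.08% in WT.

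**Figure D3:**
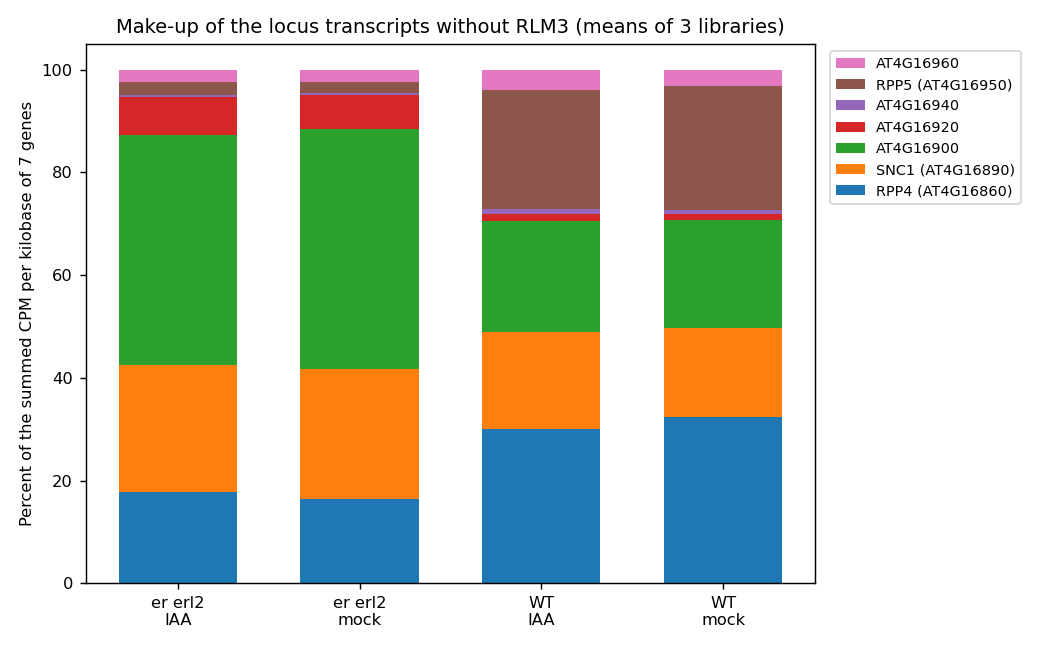
Share of each gene in the summed CPM per kilobase of exon of the 7 receptor genes without RLM3, as means of 3 libraries per group, er erl2 left of WT. AT4G16900 takes 44.6% and 46.8% in er erl2 and 21.7% and 21.1% in WT, and RPP5 takes 2.54% and 2.20% in er erl2 and 23.1% and 24.1% in WT.

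The order of the genes by CPM per kilobase of exon also differed. In er erl2, under both treatments, RLM3 was highest, followed by AT4G16900, SNC1, RPP4 and AT4G16920, none of which overlapped the next. RPP5 and AT4G16960 came after them and could not be ordered, since their libraries overlapped, and AT4G16940 was last. In WT the order was RLM3, RPP4, RPP5, AT4G16900, SNC1, AT4G16960, AT4G16920 and AT4G16940. RPP5 and AT4G16900, and AT4G16900 and SNC1, overlapped in WT under IAA but not under mock, and AT4G16920 and AT4G16940 overlapped under both. With IAA, RPP4 thus stood at 6.76 CPM per kilobase in er erl2 and 17.5 CPM per kilobase in WT, and RPP5 at 0.969 CPM per kilobase in er erl2 and 13.5 CPM per kilobase in WT.

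The genes between and around the receptors did not share one direction either. Of 24 other genes coded in the same stretch, 16 passed the count filter, and 4 of them were called higher and 4 lower in er erl2 under IAA, 4 higher and 5 lower under mock. Of all genes tested, 7.14% were called higher and 6.84% lower under IAA, and 8.40% and 7.33% under mock. AT4G16857, a short gene of the same receptor family before RPP4, had 40.1 ± 9.07 CPM with IAA and 31.2 ± 5.82 CPM with mock in er erl2, against 2.24 ± 0.477 and 2.16 ± 0.586 CPM in WT (SD, n = 3 each; log2 fold change 4.15, SE 0.239, and 3.85, SE 0.242). The pseudogene AT4G16870, which lies between AT4G16857 and RPP4, had 0 counts in all 6 er erl2 libraries and 1803 to 2373 counts in WT libraries. Against a floor of 3 counts per library it was at least 713-fold lower under IAA and at least 721-fold lower under mock. Thus, going along the chromosome into RPP4, a gene higher in er erl2, a pseudogene without counts there and RPP4 itself, lower there, lie side by side.

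Farther in, the noncoding RNA gene AT4G16892, beyond the start of SNC1, was higher in er erl2 (log2 fold change 2.27, SE 0.136, under IAA and 2.09, SE 0.136, under mock), and the pseudogene AT4G16910 was lower (-1.16, SE 0.203, and -1.44, SE 0.207). AT4G16957, just beyond the start of RPP5, had 0.720 ± 0.151 and 0.610 ± 0.253 CPM in er erl2, against 9.14 ± 0.583 and 7.54 ± 0.275 CPM in WT with IAA and mock (SD, n = 3 each). Its log2 fold change was -3.65 (SE 0.201) and -3.64 (SE 0.207), close in size to that of RPP5. VRN2, a Polycomb protein gene of vernalization before the first receptor, was lower by less (-0.69, SE 0.0707, and -0.50, SE 0.0704). These 6 neighbours kept their calls under all 20 alternatives. Of the other called neighbours, EXLB1, an expansin-like gene, was higher under both treatments (0.35, SE 0.103, and 0.40, SE 0.105), the kinase gene AT4G16970 under IAA (0.46, SE 0.127), AT4G17020 under mock (0.29, SE 0.0771), and AT4G16835 was lower under mock (-1.02, SE 0.283). Each of these 4 lost its call in 4 to 6 of 20 alternatives, among them leaving out single libraries.

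**Figure D4:**
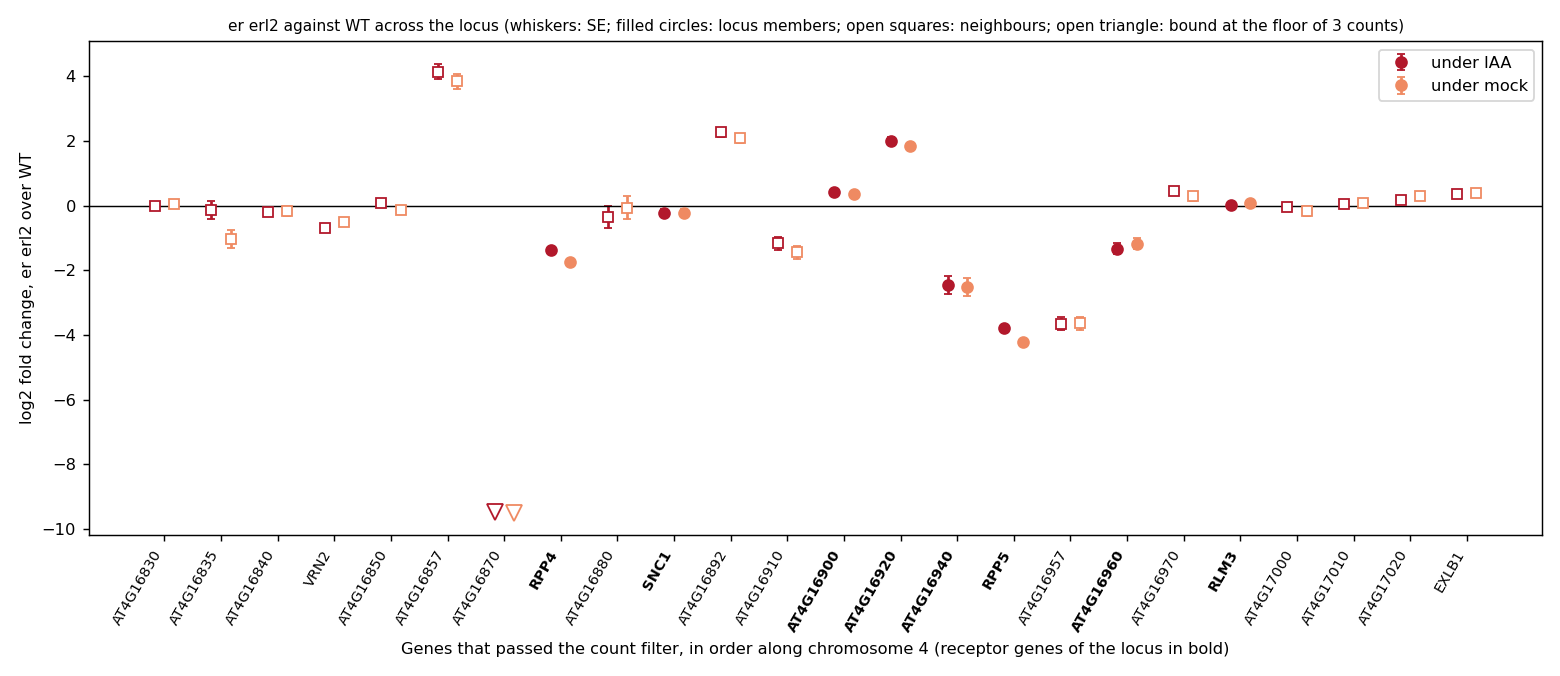
Log2 fold change of er erl2 over WT with its SE for the receptor genes (filled circles) and their neighbours (open squares) in order along chromosome 4, under IAA and under mock; the open triangles give the bound of AT4G16870 at the floor of 3 counts. Higher and lower genes both occur along the stretch, with AT4G16857 at 4.15 and 3.85 and RPP5 at -3.79 and -4.23.

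Where the RefSeq annotation leaves a gene-free stretch before a receptor gene, the sequence was compared. Stretches of up to 250 bases were taken, cut short where another gene begins: 250 bases for SNC1 and RLM3, 154 for AT4G16940, 145 for RPP4, 35 for AT4G16900 and 34 for RPP5, and none for AT4G16920 and AT4G16960. RPP4 and SNC1 are shown because these neighbouring receptors stood apart in their genotype differences. Their longest shared run, in capitals, was 15 bases, ending 110 bases before the annotated start of RPP4 and 138 bases before that of SNC1. The stretches lie at chr4:9495838-9495982 (RPP4) and chr4:9505973-9506222 (SNC1) of TAIR10.1, minus strand, and read 5′ to 3′ towards the gene.
RPP4: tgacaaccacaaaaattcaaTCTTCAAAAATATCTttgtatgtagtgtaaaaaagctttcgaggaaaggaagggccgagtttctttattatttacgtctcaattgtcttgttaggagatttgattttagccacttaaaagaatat
SNC1: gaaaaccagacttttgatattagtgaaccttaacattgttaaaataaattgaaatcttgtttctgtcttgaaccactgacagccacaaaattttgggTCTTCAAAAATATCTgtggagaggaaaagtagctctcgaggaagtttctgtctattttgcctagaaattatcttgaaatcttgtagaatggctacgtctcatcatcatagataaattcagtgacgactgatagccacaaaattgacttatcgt

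The core of the W-box (TTGAC on either strand), the element that WRKY factors of plant defence bind, was searched in the 6 stretches. It occurred once, in that of SNC1. Of 27443 windows of the same length before annotated genes, 44.9% held it at 250 bases and 29.9% at 145 bases.

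The effect of auxin was tested within each genotype, a contrast other than the one known at the choice of the genes, though in the same 12 libraries. Each IAA effect shares libraries with the known genotype differences and so is not independent of them. In er erl2, all 8 genes had higher means with IAA than with mock, with a median log2 fold change of 0.26 over the 8 genes and -0.00 over all genes tested. None of the 8 was called by edgeR at an adjusted p under 0.05, against 1.53% of all genes tested. At an unadjusted p under 0.05 there were 3, where 11.3% of all genes tested were: AT4G16920, RPP5 and RPP4. DESeq2 called AT4G16920 and RPP5, and limma-voom called AT4G16920. The libraries with IAA and with mock did not overlap for 2 of the 8 genes, AT4G16920 and RPP5, and for 17.2% of all genes tested.

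AT4G16920 was at 16.2 ± 0.376 CPM with IAA and 12.6 ± 1.18 CPM with mock in er erl2 (SD, n = 3 each), and the groups did not overlap (log2 fold change 0.37, SE 0.0920). Its adjusted p was 0.0656 by edgeR, 0.0243 by DESeq2 and 0.0239 by limma-voom. RPP5 was at 5.62 ± 0.854 CPM with IAA and 4.24 ± 0.591 CPM with mock, also without overlap (0.41, SE 0.115), with an adjusted p of 0.121 by edgeR and 0.0411 by DESeq2. RPP4 was at 27.2 ± 3.02 CPM with IAA and 22.1 ± 2.48 CPM with mock, and its groups overlapped (0.30, SE 0.0866, edgeR adjusted p = 0.130). Single libraries decide these calls. Without the second er erl2 library with IAA, RPP5 (0.52, adjusted p = 0.0188) and RPP4 (0.39, adjusted p = 0.0216) passed the edgeR threshold, and without the second er erl2 library with mock AT4G16920 did (0.45, adjusted p = 0.0479). The other 5 genes had log2 fold changes of 0.05 for RLM3, 0.13 for AT4G16900, 0.17 for SNC1, 0.22 for AT4G16960 and 0.33 for AT4G16940.

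In WT, the log2 fold change of IAA over mock lay between -0.08 and 0.36 for the 8 genes. It was positive for 6 genes and negative for RPP4 and RPP5, with a median of 0.13 over the 8 genes and 0.00 over all genes tested. None was called by edgeR, DESeq2 or limma-voom, against 1.21% of all genes tested by edgeR. For 3 of the 8 genes, and 13.4% of all genes tested, the IAA and mock libraries did not overlap. AT4G16960 alone had an unadjusted p under 0.05, where 9.77% of all genes tested had one (0.36, SE 0.159, edgeR adjusted p = 0.479), and it was higher with IAA in every library. AT4G16920 was also higher with IAA in every WT library (0.19, SE 0.109, edgeR adjusted p = 0.600). RPP4 was lower with IAA in every WT library, by a log2 fold change of -0.08 (SE 0.0821, edgeR adjusted p = 0.809). RPP5 stood at -0.02 (SE 0.0858), a value whose sign turned under 1 of 20 alternatives.

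The interaction asks whether the effect of IAA differs between the genotypes. It equals the genotype difference under IAA minus that under mock, and these were known when the genes were chosen, so its values are given for the 8 genes with no test. It was 0.43 (SE 0.144) for RPP5 and 0.37 (SE 0.119) for RPP4. For the other 6 genes it ran from -0.15 for AT4G16960 to 0.18 for AT4G16920. Over all genes tested, edgeR called 0% for the interaction and limma-voom called 0 genes, DESeq2 called 16 genes, and 5.98% had an unadjusted edgeR p under 0.05.

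**Figure D5:**
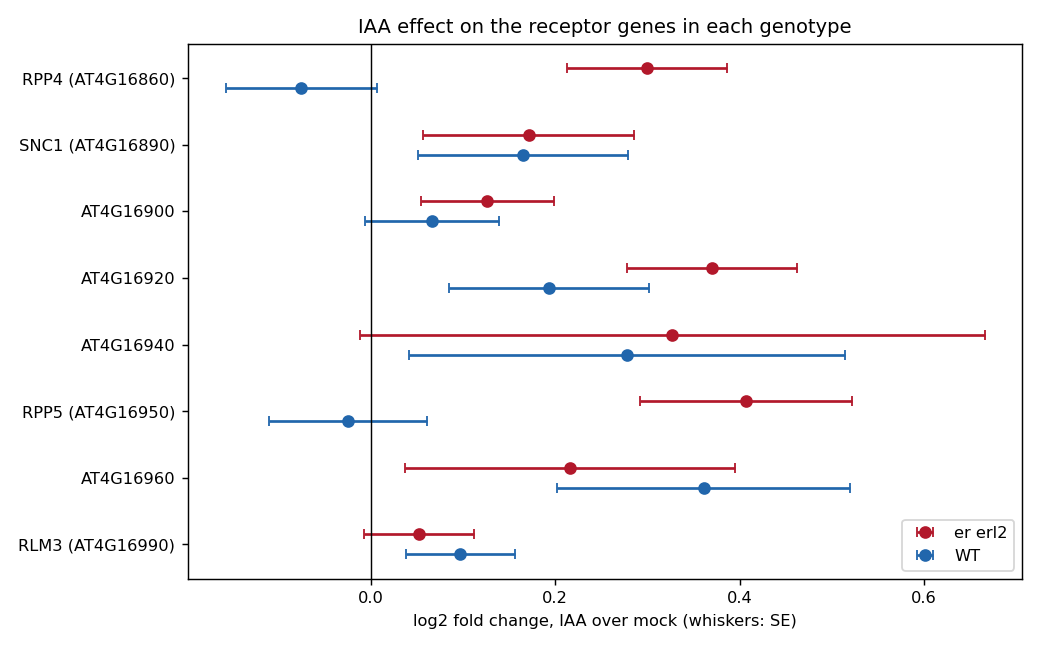
Log2 fold change of IAA over mock with its SE for each receptor gene in er erl2 (red, upper point) and WT (blue, lower point). In er erl2 all 8 points lie above 0, between 0.05 and 0.41, and in WT RPP4 and RPP5 lie just below 0.

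RPP4 and RPP5 also varied together among libraries of the same group. After subtracting group means of log2 CPM, their correlation over the 12 libraries was 0.954, the highest of 28 pairs, whose median was 0.208 and lowest -0.64 (AT4G16900 and AT4G16960). Of the pairs, 11 were negative, and SNC1 and RPP5, for example, reached 0.471. These are descriptions of 12 libraries that share their scaling. With each other, RPP4 and RPP5 shared 1.25% of the 100-base words of RPP4 and 2.73% of those of RPP5. Of the 50-base words, 27.1% of those of RPP4 and 36.8% of those of RPP5 occurred in other genes of the set, not split by pair. The part of shared reads in the correlation of RPP4 and RPP5 was not tested.

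Over all 12 libraries, the genes outside the set with the log2 CPM most like RPP4 were ER (Pearson r = 0.990), AT5G22608 (0.990) and AT4G19500 (0.990), and those most like RPP5 were the cytochrome P450 gene CYP706A7 (0.996), AT4G13630 (0.996) and ER (0.996). All of these were lower in er erl2 and lie on chromosomes 2, 4 and 5. Some were nearly without counts there: AT4G19500 averaged 0.0824 CPM in er erl2 and 48.8 CPM in WT, CYP706A7 0.0253 and 7.18 CPM, and AT5G22608 0.0682 and 3.10 CPM. ER averaged 6.94 and 57.9 CPM, and AT4G13630 5.82 and 23.9 CPM. SNC1 was most like AT4G03260 (0.923), AT5G20580 (0.897) and AT3G03000 (0.872), whose means were near each other in the genotypes, for AT4G03260 84.8 CPM in er erl2 and 88.7 CPM in WT. A pattern that only splits the genotypes gives a high r by itself.

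The wider class of TIR receptors gives a frame for these values. Of 96 other genes annotated with a TIR and a nucleotide-binding domain, the neighbour AT4G16857 among them, 81 passed the count filter. Their log2 fold changes of er erl2 over WT ran from -12.2 to 4.15 under IAA and from -12.1 to 3.85 under mock. The highest value in both treatments was that of AT4G16857. In er erl2 against WT, 7 of them were called higher and 9 lower under IAA, and 7 higher and 13 lower under mock, with median log2 fold changes of 0.06 and -0.12. The shares of all genes tested were 7.14% higher and 6.84% lower under IAA, and 8.40% and 7.33% under mock. With IAA, 60 of the 81 had positive log2 fold changes in er erl2 (median 0.13) and 44 in WT (median 0.03), and 1 was called in each genotype. Among all 21376 genes tested, 10338 were positive in er erl2 and 10670 in WT, and 1.53% and 1.21% were called.

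Partners and outputs of the receptors were read from lists. These lists were chosen with earlier results of these data known. The p-values of listed genes, here and in the paragraphs below, are therefore not those of unselected genes. The EDS1 group held EDS1, its copy AT3G48080, PAD4 and SAG101, and also NDR1, which is not among the EDS1 partners named above. This group had 1 of 5 tested genes called by edgeR between the genotypes under IAA and 0 under mock, where DESeq2 and limma-voom called 0 as well and 0 had an unadjusted p under 0.05 (median log2 fold change 0.17 and -0.07). SAG101, the EDS1 partner that works with NRG1 helpers, was at 40.9 ± 2.88 CPM in er erl2 and 26.8 ± 3.92 CPM in WT with IAA (SD, n = 3 each; log2 fold change 0.61, SE 0.155, edgeR adjusted p = 0.0246). This call was lost in 6 of 20 alternatives (adjusted p of up to 0.137), among them leaving out the second or the third WT library or the first or the third er erl2 library with IAA. EDS1 itself was at 30.8 ± 3.71 and 24.2 ± 1.40 CPM in er erl2 with IAA and mock, against 27.4 ± 2.31 and 25.6 ± 4.93 CPM in WT, and it has a near-identical copy. Of the helper receptors ADR1, ADR1-L1, ADR1-L2, NRG1.1 and NRG1.2, none of the 5 tested was called by edgeR between the genotypes in either treatment, 1 by DESeq2 under IAA, and NRG1.3 had no counts. Their median log2 fold change was 0.19 under IAA and -0.01 under mock, against -0.00 and -0.01 over all genes tested. Unadjusted, 2 of the 5 had p under 0.05 between the genotypes under IAA and 0 under mock. Over all 21376 genes tested, 6072 under IAA and 6256 under mock had such a p. Calls by edgeR between the genotypes reached 14.0% of all genes tested under IAA and 15.7% under mock.

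Salicylic acid genes and outputs gave 1 lower of 12 tested in er erl2 under IAA and, under mock, 1 higher and 3 lower (median log2 fold change 0.01 and -0.37). Of all genes tested, 14.0% were called under IAA and 15.7% under mock. PR5, a thaumatin-like defence protein, was at 0.512 ± 0.0988 and 0.476 ± 0.196 CPM in er erl2 with IAA and mock, against 1.31 ± 0.204 and 1.41 ± 0.0736 CPM in WT (log2 fold change -1.36, SE 0.296, edgeR adjusted p = 0.00727 under IAA, and -1.58, SE 0.298, adjusted p = 0.00250 under mock). ALD1 and FMO1, enzymes that make pipecolic acid and its active hydroxylated form, were lower in er erl2 under mock. ALD1 was at 0.587, 0.867 and 0.498 CPM in er erl2 with mock, against 4.15, 2.60 and 8.31 CPM in WT with mock (-2.96, SE 0.453, edgeR adjusted p = 0.00153). For FMO1 the means were 0.225 ± 0.0279 CPM in er erl2 and 0.996 ± 0.245 CPM in WT (-2.14, SE 0.508, edgeR adjusted p = 0.0110), and the adjusted p was 0.0516 without the third er erl2 library with mock. NPR3, a salicylic acid receptor, was higher in er erl2 under mock by 0.27 (SE 0.0797, edgeR adjusted p = 0.0362), a call lost in 6 of 20 alternatives. PR1 and PR2, the classical markers of active salicylic acid signalling, did not pass the count filter, and PR1 had a mean of 0.0332 CPM in er erl2 with IAA and 0 in the other 3 groups.

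With IAA in er erl2, 2 of the 12 salicylic acid genes were called, both higher, against 1.53% of all genes tested, and 6 of the 12 had an unadjusted edgeR p under 0.05, against 11.3%. The list did not share one direction, since 8 of the 12 had positive log2 fold changes. Among the 6, WRKY70 was lower with IAA (-0.55, SE 0.241). All 5 genes of the EDS1 group had positive log2 fold changes (median 0.35), and 0 were called by edgeR, DESeq2 or limma-voom. At an unadjusted edgeR p under 0.05 there were 3: EDS1 (0.35), PAD4 (0.37) and, outside the EDS1 partners, NDR1 (0.61). All 5 helper receptors tested were positive too (median 0.28), with 2 at an unadjusted p under 0.05 and 0 called by the same tools. In WT, 3 of the 12 salicylic acid genes, 1 of the 5 EDS1 group genes and 0 of the 5 helpers had an unadjusted edgeR p under 0.05, against 9.77% of all genes tested. ALD1 rose in er erl2 to 5.75 ± 1.54 CPM with IAA, against 0.651 ± 0.193 CPM with mock (log2 fold change 3.15, SE 0.448, edgeR adjusted p = 0.00389), a call kept in all 20 alternatives. ALD1 was also higher with IAA in every WT library, at 9.88 ± 1.12 CPM against 5.02 ± 2.95 CPM with mock, but was not called there. SARD1, an activator of salicylic acid synthesis, rose in er erl2 to 2.25 ± 0.407 CPM with IAA, against 0.690 ± 0.183 CPM with mock (1.71, SE 0.338, edgeR adjusted p = 0.0150). The SARD1 call was lost without the first or the third er erl2 library with mock or the first with IAA, with an adjusted p of up to 0.101. In WT only NPR3 was called (0.36, SE 0.0796, edgeR adjusted p = 0.0377), and 9 of 20 alternatives lost it. For the interaction, edgeR and limma-voom called none of the 12 genes, DESeq2 called 1, and 2 had an unadjusted edgeR p under 0.05.

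Among known regulators of SNC1 the median log2 fold change was -0.10 under IAA and -0.04 under mock. Of 21 tested, TPR1, a co-repressor that works with SNC1, was the one called between the genotypes, at 72.6 ± 4.23 and 80.3 ± 1.60 CPM in er erl2 with IAA and mock, against 88.6 ± 2.69 and 91.7 ± 2.41 CPM in WT (log2 fold change -0.29, SE 0.0549, edgeR adjusted p = 0.00310, and -0.19, SE 0.0548, adjusted p = 0.0291). The call under mock was lost in 6 of 20 alternatives. Among 5 genes of RNA silencing and DNA methylation, which are known to restrain this locus (median log2 fold change 0.06 and 0.17), RDR6 was called higher in er erl2 under both treatments (0.20, SE 0.0625, adjusted p = 0.0427, and 0.20, SE 0.0624, adjusted p = 0.0477, edgeR). AGO1 was called higher under mock (0.17, SE 0.0538, edgeR adjusted p = 0.0415). The calls of RDR6 were lost in 12 and 11 of 20 alternatives and that of AGO1 in 9, so they depend on single libraries and settings. Between the genotypes, 14.0% of all genes tested were called under IAA and 15.7% under mock.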

How the data were processed

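The authors deposited 1 table of raw counts per gene for the 12 libraries. Per the labels' protocols, RNA was selected for poly-A and the kit keeps strand. STAR 2.7.6a, featureCounts 2.0.0 and the TAIR10 build are named in the submitters' processing notes; the annotation, the strand setting and the treatment of reads with several matches are not given in the sources used here. Of 37336 genes, 37051 matched RefSeq's TAIR10.1 annotation, which gave names, coordinates, exon lengths and sequences.

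All 12 libraries were fitted in 1 model with a mean per group (edgeR 4.0.16 quasi-likelihood, TMM scaling, filterByExpr, R 4.3.3). P-values were adjusted by Benjamini-Hochberg over 21376 genes, with calls at 0.05. All 8 receptor genes passed the filter. Levels are TMM-scaled CPM, and log2 CPM used a prior count of 2. DESeq2 1.42.0, limma 3.58.1 and 18 other alternatives were run. Coding sequences were aligned with MAFFT 7.526. No pair of libraries in a group agreed within sampling noise (chi-square per degree of freedom 7.91 to 18.3).

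The members and lists were chosen with earlier results of these data known. Named genes are the 8 members, neighbours with at least 10 counts in any library, called genes of each list, and the 3 genes most like RPP4, SNC1 and RPP5. Genes that overlap a member and listed genes that were not called (EDS1, AT3G48080, PAD4, NDR1, WRKY70, the helper receptors, PR1 and PR2) are named outside this rule, after their values were seen.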

Additional observations from a re-analysis of the deposited data

How the results depend on the processing

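No called log2 fold change of a gene named in the text turned its sign under the alternatives run on it; signs were not compared for the other called genes. Each entry below gives the number of called genes as reported, then the alternatives that moved it and the range when leaving out 1 library. For IAA in er erl2 it was 328, with 617 by DESeq2 and 219 to 561 when leaving out 1 library; among the receptor genes it was 0, with 2 by DESeq2, 1 by limma-voom and 0 to 2 when leaving out 1 library. For IAA in WT it was 259, with 411 by DESeq2, 172 with only the groups compared and 164 to 337 when leaving out 1 library. The interaction had 0, with 16 by DESeq2 and 0 to 7 when leaving out 1 library. Between the genotypes it was 2989 under IAA (1946 to 3216 when leaving out 1 library) and 3362 under mock (2029 to 3482).

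Libraries of the same number did not vary together: in 18 such pairs the correlation of deviations from the group means was at most 0.0935. With the replicate block, 296 genes were called for IAA in er erl2, 233 for IAA in WT, 0 for the interaction, and 2590 and 2941 between the genotypes under IAA and mock, with 0 receptor genes called for IAA. A second block, from numbers in the column names, and the alternatives for neighbours and listed genes were chosen after seeing the data. Depth limits the values of AT4G16940, with 14 to 25 counts in er erl2 libraries, and of FMO1, with 2 to 8, and PR5, with 11 to 21.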
